A study of Homo sapiens with 16 samples.

Results

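The collagen and laminin chain genes were examined in 16 RNA-seq libraries of A549 and H2023, established human cell lines of non-small cell lung cancer. Members were all rows of the deposited tables whose symbol consists of COL, a type number, A and a chain number, or of LAM, the letter A, B or C and a chain number. That gave 41 of 18227 genes, 30 collagen chains and 11 laminin chains. Of these, 36 reached 1 TPM (a level scaled for transcript length and for the library total) in any library, 26 of them collagens and 10 laminins. Each line was sequenced as wild-type cells and as cells labelled knockout for ZC3H12A. This gene encodes Regnase-1, an RNase that cleaves a set of mRNAs. Both genotypes were grown for 3 days in normal culture and for 7 days in oncosphere culture, which the labels describe as enriched for stem-like cells, so that 2 lines, 2 genotypes and 2 cultures made 8 groups of 2 libraries. By their titles, the cells labelled knockout were 1 clone in each line, so the edit and other features of that clone cannot be told apart. Nothing in the labels states that the 2 libraries of a group came from separate cultures, so the p-values measure the spread between these libraries, which may be technical. Culture type and days in culture changed together and cannot be told apart.

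Collagens are secreted proteins made of 3 chains wound into a triple helix. Fibrillar collagens build the cables of connective tissue, collagen IV forms the network of basement membranes, and collagen VI forms beaded filaments close to cells. Laminins join 1 alpha, 1 beta and 1 gamma chain into a cross-shaped protein that is the other main network of basement membranes, to which epithelial cells bind through integrins. In lung, LAMA3 and LAMB3 are chains of the laminin that anchors epithelium, whereas LAMA5 with LAMB1 or LAMB2 and LAMC1 is widespread. The chains of a trimer are made by different genes, so the mRNA level of one chain does not give the amount of the assembled protein.

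TPM per library summed to between 991838 and 998125, and 13824 to 14508 genes reached 1 TPM. TPM retains no sequencing depth, so the depth is unknown. The share of TPM from mitochondrial genes was 10.3% to 18.7% in the libraries of normal culture and 19.5% to 25.6% in those of oncospheres. Replicates correlated across genes with r of 0.977 to 0.99 on the log2 scale. ZC3H12A mRNA was at 30.7 and 34.9 TPM in A549 wild type in normal culture and at 16.9 and 19.9 TPM in the knockout-labelled libraries. In the other 3 comparisons both such libraries lay above both wild-type libraries, with 60.2 and 55.6 against 48.5 and 49.2 TPM in A549 oncospheres, 41.5 and 41.5 against 26.8 and 29.9 TPM in H2023 normal culture, and 94.6 and 69.2 against 32.5 and 26.4 TPM in H2023 oncospheres. The mRNA was thus not lower under the knockout label there. Regnase-1 protein was not measured, and the mRNA level does not show whether the protein was lost. Every direction below is that of the knockout-labelled libraries. Of the 6 epithelial markers, the keratins KRT8, KRT18 and KRT7 were at 765, 666 and 630 TPM or more in every library and CDH1 ranged from 12.7 to 84.5 TPM. EPCAM was at 0.37 to 1.98 TPM in the A549 libraries of normal culture, and KRT19 at 6.11 and 8.33 TPM in wild type and 0.67 and 0.29 TPM in the knockout-labelled libraries there. Among the stromal markers with a row, PDGFRA, PDGFRB and TCF21 stayed below 1 TPM in all libraries, LUM reached 3.53 TPM, FAP reached 2.34 TPM and ACTA2 ranged from 3.96 to 26.3 TPM. The endothelial marker PECAM1 reached 2.76 TPM at most, and of the blood cell markers CD68 ranged from 28.7 to 179 TPM, CD14 from 0.35 to 47.6 TPM and LYZ from 0.0 to 18.6 TPM, each highest in the first A549 wild-type oncosphere library.

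The genes of collagen IV lie in 3 pairs that are transcribed away from each other from neighbouring starts. COL4A1 (ENSG00000187498, chromosome 13, 110148963 to 110307233, - strand) and COL4A2 (ENSG00000134871, 110305812 to 110513209, + strand) overlap at their starts in GENCODE 29 on GRCh38. COL4A3 (chromosome 2, 227164565 to 227314792, + strand) faces away from COL4A4 (227002711 to 227164453, - strand). COL4A5 (chromosome X, 108439844 to 108697545, + strand) faces away from COL4A6 (108155607 to 108439497, - strand). By RefSeq, the starts of the pairs stand 127, 419 and 380 bases apart, in the order given. The shared starting regions are printed because the results below set the 2 genes of each pair side by side. The first sequence is the stretch between both starts, on the + strand of GRCh38.p14 at chr13:110307158-110307283. The other sequences are the 250 bases before each start on the gene's own strand. They lie at chr2:227164374-227164623 (+) for COL4A3, chr2:227164206-227164455 (-) for COL4A4, chrX:108439588-108439837 (+) for COL4A5 and chrX:108439459-108439708 (-) for COL4A6, and the windows of these pairs overlap each other.
COL4A1-COL4A2: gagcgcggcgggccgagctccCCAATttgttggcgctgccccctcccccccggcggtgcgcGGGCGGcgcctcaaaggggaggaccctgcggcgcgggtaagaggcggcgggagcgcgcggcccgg
COL4A3: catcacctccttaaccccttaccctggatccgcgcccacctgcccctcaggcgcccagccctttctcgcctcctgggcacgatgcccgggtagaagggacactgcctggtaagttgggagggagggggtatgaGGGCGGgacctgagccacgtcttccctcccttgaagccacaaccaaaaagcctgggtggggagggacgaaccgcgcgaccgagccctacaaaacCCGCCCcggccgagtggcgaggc
COL4A4: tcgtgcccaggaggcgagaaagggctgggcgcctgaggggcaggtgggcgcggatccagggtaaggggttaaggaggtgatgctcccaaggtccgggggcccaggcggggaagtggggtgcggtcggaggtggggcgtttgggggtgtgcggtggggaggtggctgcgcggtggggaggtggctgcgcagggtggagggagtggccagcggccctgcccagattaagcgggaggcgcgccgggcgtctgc
COL4A5: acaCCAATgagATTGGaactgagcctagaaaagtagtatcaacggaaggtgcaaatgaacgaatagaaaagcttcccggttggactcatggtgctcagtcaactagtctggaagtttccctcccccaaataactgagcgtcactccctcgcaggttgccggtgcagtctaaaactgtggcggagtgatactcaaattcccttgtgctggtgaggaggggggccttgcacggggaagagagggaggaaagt
COL4A6: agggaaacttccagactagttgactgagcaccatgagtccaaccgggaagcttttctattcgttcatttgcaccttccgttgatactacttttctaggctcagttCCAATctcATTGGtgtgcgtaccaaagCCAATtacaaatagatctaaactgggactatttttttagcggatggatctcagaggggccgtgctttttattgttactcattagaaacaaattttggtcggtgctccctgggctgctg
Capitals mark matches, on either strand, to the GC box GGGCGG, the CCAAT box CCAAT, the TATA box TATAAA and the AP-1 motif TGANTCA. No 2 matches overlapped. The COL4A1-COL4A2 stretch held 1 GC box and 1 CCAAT box, COL4A3 held 2 GC boxes, COL4A5 and COL4A6 held 2 and 3 CCAAT boxes, and COL4A4 held none of the 4 motifs. The 2 CCAAT boxes of COL4A5 lie in the overlap with the COL4A6 window and are also 2 of its 3. Of 35116 RefSeq windows, 42.6% held the GC box and 32.0% the CCAAT box in 250 bases, and 34.6% and 21.1% in 126 bases.

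LAMA3 and LAMB3 encode chains of the same laminin, and their windows are printed because their levels moved in opposite directions in A549. LAMA3 (ENSG00000053747) lies on chromosome 18 at 23689443 to 23956222 (+ strand) and its 250-base window at chr18:23872770-23873019 (+), which is inside the annotated gene and belongs to the start that RefSeq lists. LAMB3 (ENSG00000196878) lies on chromosome 1 at 209614870 to 209652466 (- strand) and its window at chr1:209652426-209652675 (-).
LAMA3: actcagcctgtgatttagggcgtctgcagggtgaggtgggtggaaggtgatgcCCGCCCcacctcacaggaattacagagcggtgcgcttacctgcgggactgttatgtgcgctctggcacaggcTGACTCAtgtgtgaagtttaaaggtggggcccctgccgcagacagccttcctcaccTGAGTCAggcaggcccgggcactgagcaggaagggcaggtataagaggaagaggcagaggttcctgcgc
LAMB3: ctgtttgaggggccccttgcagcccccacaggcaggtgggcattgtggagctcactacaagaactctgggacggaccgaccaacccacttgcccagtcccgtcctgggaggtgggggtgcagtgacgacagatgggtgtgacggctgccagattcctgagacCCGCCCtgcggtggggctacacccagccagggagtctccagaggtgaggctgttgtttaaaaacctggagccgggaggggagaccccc
The same 4 motifs are in capitals. The LAMA3 window held 2 AP-1 motifs, which 6.57% of the 35116 windows hold at least once, and 1 GC box. The LAMB3 window held 1 GC box, and neither window held the TATA box, which 10.7% of windows hold. Of the 41 members, 32 had a RefSeq window. A match is a description of the sequence, and no binding was measured here.

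Laminin chains were the most abundant members. LAMA5, the alpha chain found in most adult epithelial basement membranes, was at 97.6, 179 and 322 TPM (lowest, median and highest of 16 libraries). LAMB1, a beta chain, was at 84.6, 148 and 176 TPM, and LAMB2, the beta chain that can take its place, at 42.5, 126 and 199 TPM. LAMC1, the gamma chain of these trimers, was at 65.3, 86.4 and 125 TPM. These 4 genes together held between 45.4% and 67.8% of the summed TPM of all members in a library. The next members by mean level were COL18A1, a basement membrane multiplexin whose end fragment is endostatin (18.2, 35.2 and 151 TPM), COL4A2 (5.0, 54.0 and 141 TPM) and COL7A1, the anchoring fibril collagen (3.52, 29.3 and 162 TPM). COL5A2, a fibrillar chain, followed with 7.46, 34.7 and 143 TPM, LAMA3 with 5.05, 36.8 and 91.8 TPM, and COL12A1, a collagen that binds to the surface of fibrils, with 2.00, 22.4 and 91.2 TPM. The highest value of each of the 4 leading laminin chains was a smaller multiple of its lowest than in COL18A1, COL4A2, COL7A1, COL5A2, LAMA3 and COL12A1.

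Across members, 17 were at 1 TPM or more in all 16 libraries, 23 exceeded 10 TPM and 8 exceeded 100 TPM in at least 1 library. Another 13 had their highest value between 1 and 10 TPM, among them COL1A1, a chain of the main fibrillar collagen, at 1.11 to 8.46 TPM. COL28A1, LAMB4, COL22A1, COL15A1 and COL24A1 stayed below 1 TPM everywhere, with highest values of 0.74, 0.41, 0.55, 0.52 and 0.23 TPM. COL5A3 and COL6A3 reached 1 TPM in A549 alone, and COL9A2, COL14A1, COL26A1, LAMA2 and LAMC3 in H2023 alone. Chains without a row, COL1A2, COL3A1 and LAMA1 among them, were not analysed here.

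**Figure D1:**
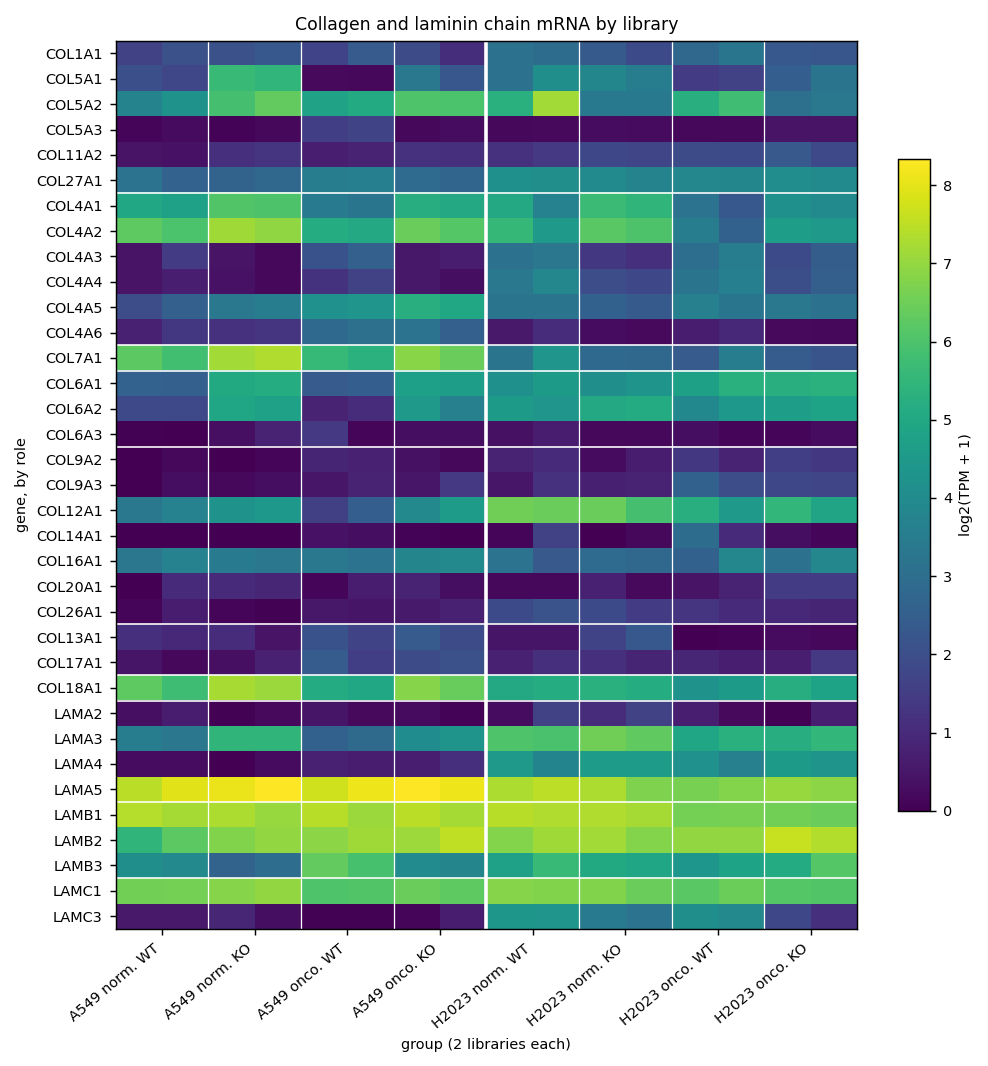
Level of 35 of the 36 members that reached 1 TPM, as log2(TPM + 1) by colour, with genes in rows grouped by role and the 16 libraries in columns, 2 per group. LAMA5, LAMB1, LAMB2 and LAMC1 are bright in every column, whereas COL6A1, COL6A2, COL5A1 and LAMA3 differ between the A549 groups. LAMA4 is brighter in the 8 H2023 columns than in those of A549, and LAMC3 is bright in 6 of these 8 and dark in the 2 of the knockout-labelled oncospheres.

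The first comparison asked how the knockout-labelled libraries differed from wild type in A549. In normal culture the 10 collagen chains that passed the test were higher in them, and in oncospheres 10 were higher and 3, COL5A3, COL4A3 and COL4A4, were lower. COL5A1 and COL6A2 had the highest log2 fold changes among members in both cultures. The summed TPM of the 30 collagen chains was 315 and 271 in wild type against 724 and 726 in the knockout-labelled libraries in normal culture, and 225 and 222 against 560 and 464 in oncospheres. The summed laminin chains were at 534 and 598 against 700 and 754 TPM, and at 654 and 690 against 755 and 715 TPM. Tests were made with limma on log2(TPM + 1), adjusted over all genes, and fold changes on this scale understate those of low genes. In normal culture 11 of 41 members rose and 1 fell, where 4.53% of all genes rose and 6.28% fell. In oncospheres 11 rose and 5 fell, where 6.04% of all genes rose and 7.2% fell. The median log2 fold change of the members was 0.23 in normal culture and 0.24 in oncospheres, against -0.03 and 0.03 over all genes. In the authors' deposited table, at an adjusted p under 0.05, 15 members were higher and 3 lower in normal culture (11.2% and 10.9% of all genes) and 13 higher and 6 lower in oncospheres (9.29% and 11.4%). More collagen mRNA in bulk RNA can come from more RNA per cell or from more cells of a kind, and these cannot be told apart.

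Among the 7 fibrillar members, 3 rose in normal culture, and 2 rose and 1 fell in oncospheres. COL5A1, a chain of collagen V, which starts fibrils (ENSG00000130635, chromosome 9, 134641774 to 134844843, + strand), was at 3.14 and 2.45 TPM in wild type and at 48.0 and 43.5 TPM in the knockout-labelled libraries in normal culture. In oncospheres it was at 0.16 and 0.13 TPM in wild type and at 9.20 and 3.75 TPM in the knockout-labelled libraries. The groups were far apart in both cultures, although oncospheres held less of the mRNA in each genotype. The log2 fold changes were 3.63 (SE 0.16, limma adjusted p = 0.0031) and 2.60 (SE 0.38, limma adjusted p = 0.015). In the authors' deposited table they were 4.21 and 5.78, so the order of the cultures depended on the scale. The difference between cultures passed neither the test of deposited fold changes nor the limma interaction. COL5A2, its partner chain (ENSG00000204262, chromosome 2, 189031896 to 189225312, - strand), was at 12.4 and 18.5 against 57.7 and 79.7 TPM in normal culture and at 27.0 and 33.3 against 64.5 and 62.5 TPM in oncospheres. The rise was 2.09 and 1.06 on the log2 scale. COL11A2, a chain of collagen XI, was at 0.36 and 0.32 against 1.22 and 1.41 TPM in normal culture, a rise of 0.79, and at 0.64 and 0.72 against 1.27 and 1.24 TPM in oncospheres, where it did not pass the test (limma adjusted p = 0.122). COL5A3, the other collagen V chain, went the opposite way, with 1.94 and 2.28 TPM in wild-type oncospheres and 0.14 and 0.22 TPM in those labelled knockout. It fell by 1.40 on the log2 scale, and in normal culture it was at 0.18 TPM or less in all 4 libraries. COL27A1, a minor fibrillar collagen, was at 10.3 and 11.0 against 6.54 and 5.63 TPM in oncospheres (limma adjusted p = 0.0528), and passed in the authors' deposited table with a log2 fold change of -1.04.

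Collagen IV split by pair. COL4A1 and COL4A2, the chains of the common basement membrane network, rose in both cultures. COL4A1 was at 31.0 and 26.4 against 66.7 and 63.6 TPM in normal culture and at 10.1 and 8.43 against 35.9 and 31.7 TPM in oncospheres. COL4A2 was at 76.4 and 62.4 against 141 and 123 TPM, and at 34.9 and 31.8 against 85.0 and 70.2 TPM. No libraries overlapped between the genotypes for these genes, and the log2 fold changes were 1.16 and 1.76 for COL4A1 and 0.92 and 1.19 for COL4A2. COL4A3 and COL4A4, chains of the network known from kidney and lung alveoli, fell in oncospheres. COL4A3 was there at 3.28 and 4.82 TPM in wild type and at 0.46 and 0.54 TPM in the knockout-labelled libraries, a log2 fold change of -1.73 (SE 0.22, limma adjusted p = 0.0105). COL4A4 was at 1.34 and 2.04 against 0.44 and 0.24 TPM, a log2 fold change of -1.0. In normal culture COL4A3 was at 0.36 and 1.74 against 0.36 and 0.14 TPM, a difference that limma did not call (adjusted p = 0.268) and that was lower in the authors' deposited table with a log2 fold change of -2.09. COL4A5, which forms trimers with COL4A3 and COL4A4 or with COL4A6, was at 17.6 and 19.5 against 37.0 and 30.4 TPM in oncospheres and rose by 0.83 on the log2 scale. In normal culture it was at 2.91 and 4.91 against 9.02 and 10.2 TPM with limma adjusted p = 0.0517, and passed in the authors' deposited table (log2 fold change 1.27). COL4A6, its head-to-head neighbour, was at 6.16 and 7.36 against 8.03 and 4.88 TPM in oncospheres, where the genotypes overlapped.

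**Figure D2:**
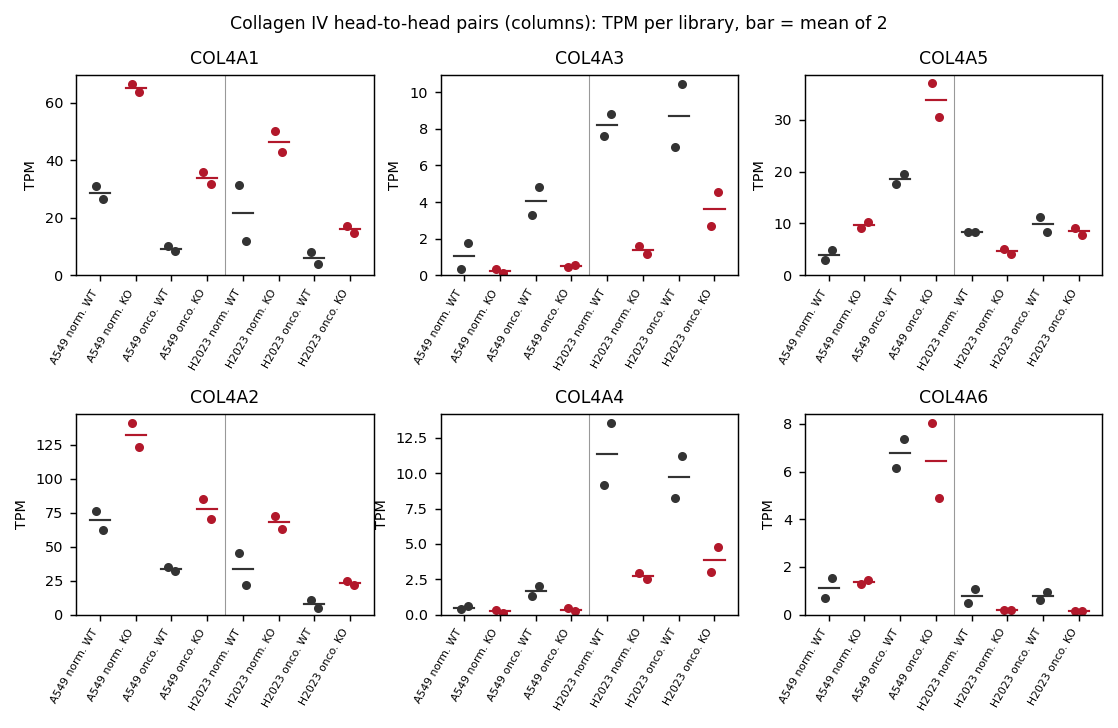
TPM of the 6 collagen IV genes in each of the 16 libraries (points) with the mean of the 2 libraries of a group (bar), 1 column of panels per head-to-head pair, black for wild type and red for knockout-labelled libraries. COL4A1 and COL4A2 are higher in the knockout-labelled libraries in all 4 comparisons, COL4A4 is lower in all 4, and COL4A3 is lower without overlap in 3 of them.

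The other collagens that passed the test all rose. Collagen VI led them, and COL6A1 and COL6A2 both lie on chromosome 21. COL6A1 (ENSG00000142156, 45981737 to 46005050, + strand) was at 5.10 and 4.85 against 32.7 and 35.1 TPM in normal culture and at 4.22 and 4.64 against 24.9 and 23.9 TPM in oncospheres. COL6A2 (ENSG00000142173, 46098097 to 46132849, + strand) was at 2.57 and 2.55 against 29.3 and 26.2 TPM, and at 0.72 and 1.06 against 21.4 and 11.4 TPM. The genotypes were separated by several-fold for both genes in both cultures. The log2 fold changes were 2.55 and 2.23 for COL6A1 and 3.01 and 3.15 for COL6A2, with limma adjusted p between 0.00298 and 0.00663. COL6A3, the long chain of collagen VI, stayed at 1.60 TPM or less, and in normal culture it was at 0.04 and 0.02 against 0.28 and 0.75 TPM, called in the authors' deposited table alone. COL7A1 was at 73.7 and 55.5 against 145 and 162 TPM in normal culture and at 47.0 and 39.3 against 114 and 84.7 TPM in oncospheres, rises of 1.25 and 1.18. COL18A1 was at 76.0 and 53.1 against 151 and 135 TPM, and at 34.1 and 30.3 against 111 and 84.3 TPM, rises of 1.15 and 1.56. COL12A1 was at 9.01 and 11.95 against 18.1 and 20.8 TPM, a rise of 0.84 (limma adjusted p = 0.0474), and at 2.00 and 4.65 against 14.3 and 23.5 TPM, a rise of 2.23. COL16A1, another collagen bound to fibrils, was at 9.18 and 8.06 against 12.8 and 14.2 TPM in oncospheres, called in the authors' deposited table (log2 fold change 0.87) and not by limma (adjusted p = 0.0727).

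Laminin chains moved apart. LAMA3 rose in A549 from 10.3 and 8.78 TPM to 42.4 and 43.2 TPM in normal culture and in oncospheres it went up from 5.05 and 6.45 TPM to 15.8 and 18.7 TPM. The log2 fold changes were 2.06 (SE 0.13, limma adjusted p = 0.00518) and 1.44 (SE 0.19, limma adjusted p = 0.0115). LAMB3, the beta chain that pairs with it, fell from 16.6 and 14.1 TPM to 5.35 and 6.82 TPM in normal culture and in oncospheres it went down from 79.7 and 59.8 TPM to 15.4 and 13.0 TPM. Its log2 fold changes were -1.21 (SE 0.19, limma adjusted p = 0.0235) and -2.21 (SE 0.18, limma adjusted p = 0.00407). Of the widespread trimer, LAMA5 was at 178 and 248 against 271 and 319 TPM in normal culture (limma adjusted p = 0.153) and LAMC1 at 94.5 and 94.9 against 112 and 125 TPM (limma adjusted p = 0.1). LAMB1 was at 167 and 148 against 157 and 131 TPM, with overlapping genotypes. LAMB2 was at 42.5 and 74.2 against 107 and 127 TPM in normal culture (limma adjusted p = 0.0691), and the authors' deposited table called LAMA5 and LAMB2 higher there with log2 fold changes of 0.58 and 1.06. In oncospheres LAMA5, LAMB1, LAMB2 and LAMC1 passed neither test.

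**Figure D3:**
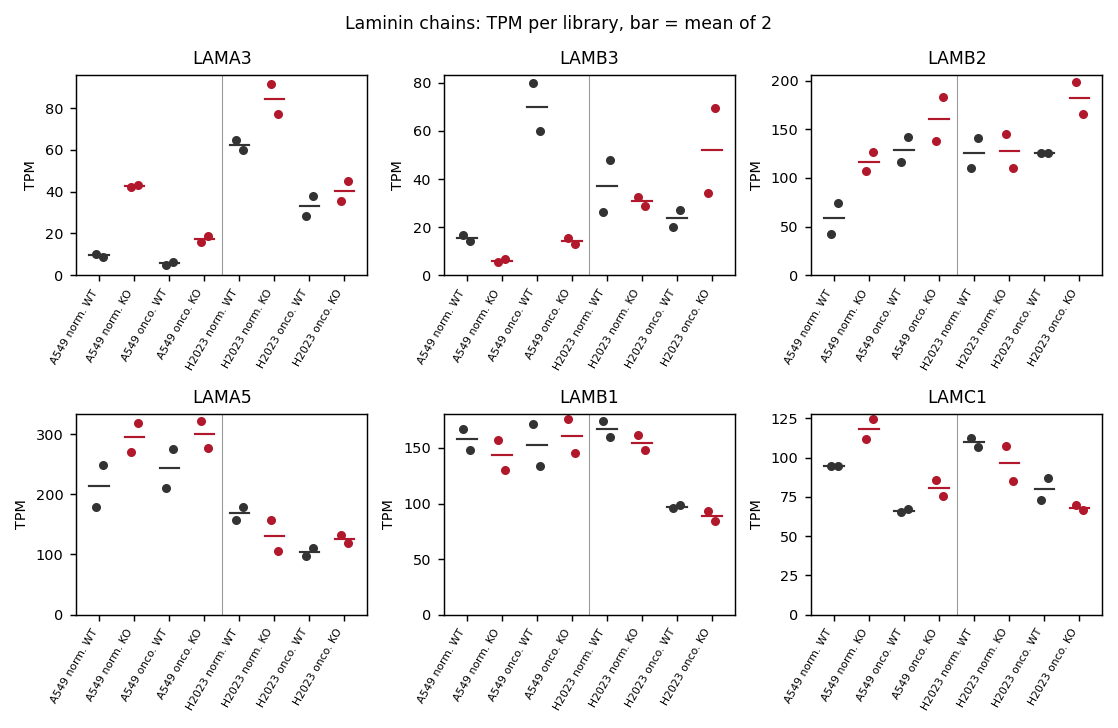
TPM of LAMA3, LAMB3 and LAMB2 (top row) and of LAMA5, LAMB1 and LAMC1 (bottom row) in each of the 16 libraries (points) with the mean of the 2 libraries of a group (bar), black for wild type and red for knockout-labelled libraries. In both A549 cultures LAMA3 is higher and LAMB3 is lower in the knockout-labelled libraries.

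The fit of a comparison with 4 libraries has 1 residual degree of freedom once a library is left out, and then no gene passed. With the spread taken from the 7 other libraries of the line, an alternative chosen after seeing the data, 9 of the 12 called members in A549 normal culture and 12 of the 16 in oncospheres kept their call without any one library. COL12A1 in normal culture lost its call without any one of the 4 libraries, with a log2 fold change of 0.66 and limma adjusted p = 0.406 without the first wild-type library, against 0.0474 with all. COL18A1 missed without the first knockout-labelled library (limma adjusted p = 0.0528) and COL11A2 without the second one (limma adjusted p = 0.0588). In oncospheres COL4A5 lost its call without any one library (limma adjusted p = 0.0707 to 0.15), COL5A2 without 3 of the 4, and COL4A4 without the second knockout-labelled library (limma adjusted p = 0.056). Markers of other cell types moved with these groups in part. The 6 epithelial markers EPCAM, CDH1, KRT8, KRT18, KRT19 and KRT7 summed to 9175 to 9346 TPM in A549 wild type and to 2571 to 5009 TPM in the knockout-labelled libraries in normal culture, and to 6666 to 7544 and 5659 to 7825 TPM in oncospheres. The 6 of 9 stromal markers in the tables summed to 9.79 to 10.3 and 10.8 to 16.8 TPM in normal culture, and to 9.80 to 15.7 and 20.7 to 27.4 TPM in oncospheres. Of these, ACTA2 was at 8.71 and 9.93 against 16.2 and 9.87 TPM in normal culture, where the genotypes overlapped. In oncospheres ACTA2 was at 11.1 and 7.29 against 19.3 and 26.3 TPM. The 3 of 5 blood cell markers summed to 45.5 to 58.9 and 35.3 to 48.0 TPM, and to 151 to 245 and 58.6 to 79.1 TPM, and the only endothelial marker with a row, PECAM1, to 0.10 and 0.01 TPM at most, and to 1.77 to 2.76 and 0.63 to 0.81 TPM. The part of these markers in the results was not tested.

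In H2023 no member passed limma in either culture, where 0.0% of all 18227 genes passed in normal culture and in oncospheres. At an unadjusted p under 0.05, limma gave 15 of 41 members and 18.2% of genes in normal culture and 14 of 41 members and 15.5% of genes in oncospheres. With the spread taken from the 8 libraries of the line, limma called COL4A3 and COL13A1 in normal culture (2 members, 0.806% of genes) and LAMC3 in oncospheres (1 member, 1.54% of genes). The authors' deposited table called 3 members higher and 8 lower in normal culture (3.84% and 6.97% of genes) and 6 higher and 8 lower in oncospheres (2.22% and 2.85%). The summed TPM of collagen chains was 359 and 444 in wild type against 369 and 317 in the knockout-labelled libraries in normal culture, and 227 and 254 against 257 and 240 in oncospheres, so the genotypes were close. The epithelial markers summed to 8749 to 9397 TPM in wild type and 12326 to 13032 TPM in the knockout-labelled libraries in normal culture, and to 4327 to 4565 and 7766 to 8273 TPM in oncospheres. The stromal markers summed to 6.75 to 9.55 and 8.47 to 9.62 TPM, and to 5.90 to 7.95 and 7.77 to 10.3 TPM, and the blood cell markers to 36.7 to 40.3 and 32.8 to 38.4 TPM, and to 31.4 to 90.3 and 73.3 to 133 TPM. PECAM1 stayed at 1.33 TPM or less in H2023, and the part of these markers in the results was not tested.

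Several members lower in H2023 by the authors' deposited table held most of their mRNA in wild type. COL5A2 was at 38.6 and 143 TPM in wild type and at 9.29 and 9.28 TPM in the knockout-labelled libraries in normal culture, and at 36.0 and 53.9 against 7.46 and 9.06 TPM in oncospheres. The knockout-labelled libraries were lower in both cultures, while the wild-type libraries of normal culture differed several-fold between each other. The authors' deposited table gave it log2 fold changes of -3.36 (adjusted p = 0.00181) and -2.66 (adjusted p = 4.15e-16). LAMC3, a gamma chain found in fewer tissues than LAMC1, was at 20.3 and 19.2 against 9.99 and 7.98 TPM, and at 17.0 and 14.3 against 2.51 and 1.18 TPM. COL4A3 was at 7.58 and 8.80 against 1.58 and 1.18 TPM and at 7.00 and 10.5 against 2.68 and 4.55 TPM, and COL4A4 at 9.14 and 13.5 against 2.95 and 2.51 TPM and at 8.28 and 11.2 against 3.03 and 4.76 TPM. In each of these the genotypes did not overlap in either culture. The deposited calls rest on the same libraries, so this adds no support to them. The authors' deposited table also had COL1A1 lower in both cultures (log2 fold changes -1.01 and -1.0) and COL4A6 lower in both, with COL4A6 at 1.06 TPM or less in every H2023 library. COL4A5 was at 8.30 and 8.28 against 5.08 and 4.18 TPM and LAMA5 at 157 and 179 against 157 and 106 TPM in normal culture, both lower in the authors' deposited table there. COL14A1, a fibril-binding collagen, was lower in oncospheres in the authors' deposited table, with 6.68 and 1.01 TPM in wild type and 0.24 and 0.10 TPM in the knockout-labelled libraries. LAMA2, an alpha chain typical of muscle, was called lower there in that table too, but its genotypes overlapped, with 0.62 and 0.16 TPM in wild type and 0.04 and 0.64 TPM in the knockout-labelled libraries.

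Fewer members were higher in H2023. COL13A1, a transmembrane collagen of cell contacts, was at 0.40 and 0.40 against 2.25 and 3.86 TPM in normal culture, with a log2 fold change of 3.07 in the authors' deposited table. COL6A2 was at 22.1 and 19.4 against 32.0 and 34.3 TPM in normal culture, called there in the authors' deposited table (log2 fold change 0.72), while COL6A1 was at 17.2 and 22.2 against 16.6 and 18.9 TPM. Both knockout-labelled libraries were also above wild type for COL4A1 in normal culture, at 50.0 and 42.7 against 31.5 and 11.97 TPM, which passed neither test. In oncospheres COL4A1 was at 7.95 and 3.95 against 17.2 and 14.6 TPM and COL4A2 at 10.5 and 5.0 against 24.7 and 21.6 TPM, with log2 fold changes of 1.36 and 1.49 in the authors' deposited table. COL5A1 was at 1.70 and 2.09 against 4.62 and 8.24 TPM and LAMB3 at 19.9 and 27.3 against 34.3 and 69.5 TPM, with log2 fold changes of 1.60 and 1.30 in the authors' deposited table. COL20A1, a little-studied fibril-associated collagen, was the last of these at 0.37 and 0.76 against 1.82 and 1.76 TPM. All of the genes in oncospheres named here had both knockout-labelled libraries above both wild-type libraries, and none passed limma (adjusted p from 0.231 to 0.339). They were named because of deposited calls made from these same libraries, so the separation adds no support to those calls.

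**Figure D4:**
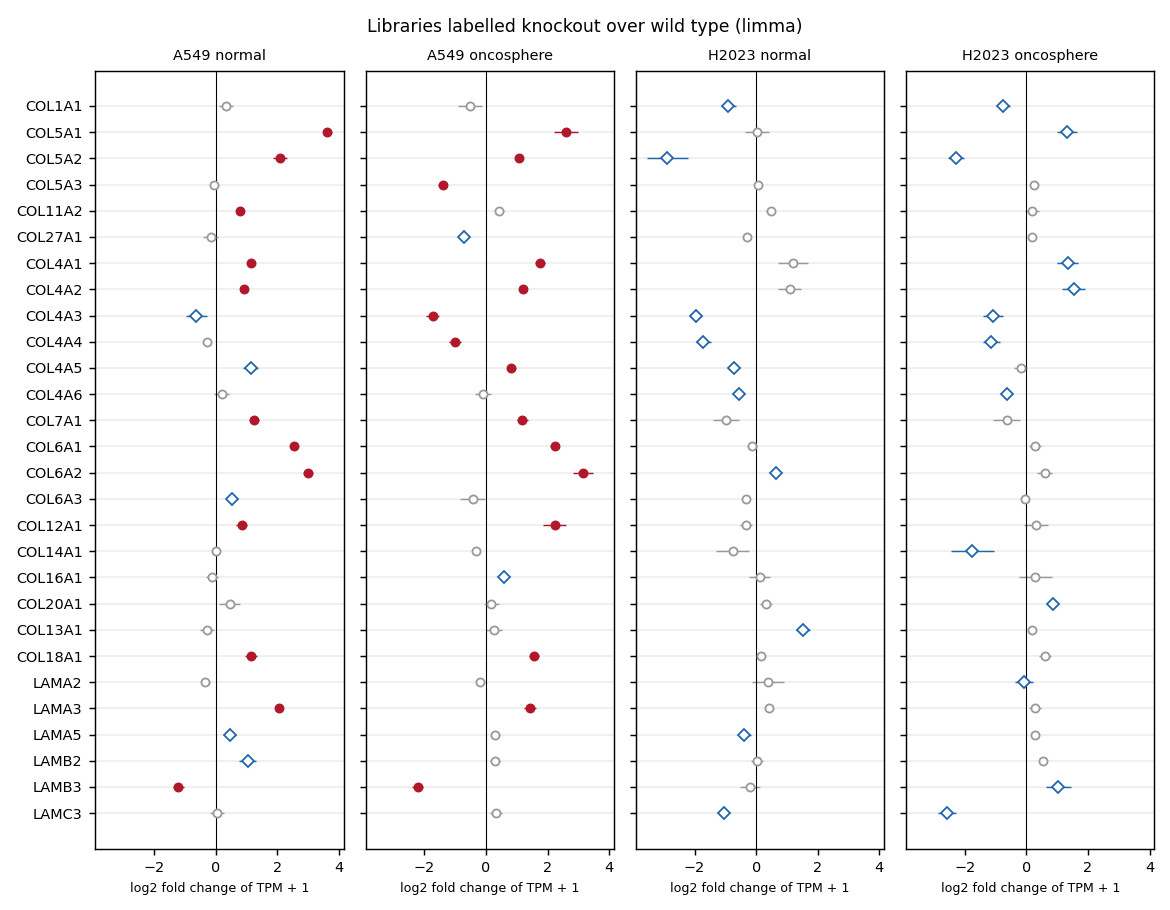
Log2 fold change of TPM + 1 in knockout-labelled libraries over wild type from limma, with its standard error as a bar, for 28 members in 4 panels, 1 per line and culture. Filled red points passed limma at an adjusted p of 0.05, open blue diamonds passed in the authors' deposited table alone and open grey circles passed in neither. The filled points stand in the A549 panels, mostly to the right, and the H2023 panels hold none.

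Whether an effect itself differed was tested from the fold changes and standard errors of the authors' deposited table. Between cultures in A549, 5 members had a lower effect in oncospheres and 0 a higher one (4.1% and 4.2% of all genes, with 11 of 41 members at an unadjusted p under 0.05). They were COL5A3 (difference -3.49), LAMB3 (-1.15), COL5A2 (-1.14), COL27A1 (-1.0) and LAMB2 (-0.76), so the fall of LAMB3 was deeper and the rise of COL5A2 smaller in oncospheres. In H2023 the effect on LAMC3 alone was lower in oncospheres, by a difference of -1.74 (0.0549% of genes lower, 0.335% higher). Between lines in normal culture, the effect in H2023 was lower for 14 members and higher for 3 (8.27% and 7.0% of genes). The lowest were COL5A2 with a difference of -5.64 (SE 0.88), COL5A1 with -4.22 (SE 0.54), COL6A3 with -3.88 (SE 1.07) and COL6A1 with -3.0 (SE 0.25), and the higher ones included COL13A1 with 3.27 (SE 0.95) and LAMB3 with 1.19 (SE 0.29). In oncospheres it was lower for 11 members and higher for 7 (5.9% and 6.96% of genes), with LAMC3 (-4.34), COL5A1 (-4.17) and COL5A2 (-3.79) the lowest and COL5A3 (4.69) and LAMB3 (3.90) among the higher ones. Some of these genes were near the floor. COL6A3 stayed at 0.75 TPM or less in normal culture in both lines. In oncospheres COL5A3 stayed at 0.36 TPM or less in H2023 and LAMC3 at 0.54 TPM or less in A549. A limma interaction on log2(TPM + 1) called 14 members in normal culture and 9 in oncospheres between lines (12.3% and 9.85% of all genes). Between cultures it called COL5A3 in A549 (6.65% of all genes) and none in H2023 (0.0% of all genes), where 5 members had an unadjusted p under 0.05. The differences of LAMB3, COL5A2, COL27A1 and LAMB2 between cultures in A549 and of LAMC3 in H2023 passed the test of deposited fold changes. They missed this limma test (adjusted p from 0.0617 to 0.587). The rise of LAMA3, COL6A1, COL6A2 and COL5A2 in A549 differed from H2023 by both tests in both cultures. Between lines, COL5A1 in oncospheres and LAMB3 in normal culture each lost their call in 2 of the 3 alternative settings run. The 2 comparisons between lines share libraries with those between cultures, and their values are given side by side only.

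Oncosphere and normal culture were compared within each genotype, with limma over the 8 libraries of a line. In A549 wild type 14 members rose and 10 fell (19.0% and 21.6% of all genes), and in the A549 knockout-labelled libraries 7 rose and 8 fell (10.9% and 9.87%). In H2023 wild type 1 rose and 8 fell (3.96% and 17.4%), and in those labelled knockout 5 rose and 7 fell (7.68% and 19.2%). The median log2 change over genes with a mean of at least 1 TPM was -0.243 in H2023 wild type and -0.173 in the H2023 knockout-labelled libraries, and under 0.1 in size in A549. Centred on that median, H2023 wild type had 4 members higher and 4 lower (8.95% and 6.93% of all genes), and the H2023 knockout-labelled libraries 9 higher and 4 lower (12% and 11.6%). Without mitochondrial genes the splits were 2 and 4 (5.61% and 6.93% of the other genes), and 8 and 4 (11.1% and 10.8%). Many calls rested on single libraries. In A549 wild type 13 of 24 called members passed without any one library, and the other 11 had limma adjusted p from 0.0524 to 0.231 without at least 1. In the A549 knockout-labelled libraries COL4A1, COL4A5, COL4A6, COL5A1, LAMA3 and LAMB3 passed without any one library, in H2023 wild type LAMB1, and in the H2023 knockout-labelled libraries COL13A1, LAMB1 and LAMC3. The other 9, 8 and 9 called members of these comparisons had limma adjusted p of up to 0.212, 0.182 and 0.197 without 1 library.

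COL4A2 and LAMA3 fell in all 4 of these comparisons. For COL4A2 the fall was 1.03 and 0.76 on the log2 scale in A549 wild type and knockout-labelled libraries and 1.96 and 1.51 in H2023. In the H2023 knockout-labelled libraries that call was lost after centring on the median and without mitochondrial genes. COL4A1 fell by 1.53 and 0.93 in A549. Its log2 changes in H2023 did not pass the test, and the wild-type levels there were 31.5 and 11.97 TPM in normal culture and 7.95 and 3.95 TPM in oncospheres. In A549 the COL4A5 and COL4A6 pair went up in both genotypes, and the COL4A3 and COL4A4 pair in wild type. COL4A5 rose from 2.91 and 4.91 to 17.6 and 19.5 TPM in wild type and from 9.02 and 10.2 to 37.0 and 30.4 TPM in the knockout-labelled libraries, log2 changes of 2.02 and 1.71. COL4A6 rose from 0.69 and 1.54 to 6.16 and 7.36 TPM and from 1.27 and 1.45 to 8.03 and 4.88 TPM, log2 changes of 1.90 and 1.63. COL4A3 and COL4A4 rose in A549 wild type by 1.37 and 0.84, with limma adjusted p = 0.0578 for COL4A3 without the second oncosphere library and 0.0524 for COL4A4 without the first library of normal culture. In the A549 knockout-labelled libraries COL4A3 was at 0.36 and 0.14 against 0.46 and 0.54 TPM and COL4A4 at 0.32 and 0.14 against 0.44 and 0.24 TPM, and neither passed the test. All 6 collagen IV chains thus changed with culture in A549 wild type, 4 of them upward and 2 downward.

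Among laminins, LAMB3 rose with oncosphere culture in A549 wild type from 16.6 and 14.1 to 79.7 and 59.8 TPM and in the knockout-labelled libraries from 5.35 and 6.82 to 15.4 and 13.0 TPM. The log2 changes were 2.10 (SE 0.19, limma adjusted p = 0.000142) and 1.10 (SE 0.19, limma adjusted p = 0.0051). LAMA3 fell by 0.65 and 1.27 on the log2 scale in A549 and by 0.90 and 1.05 in H2023, where wild type had 64.5 and 59.97 TPM in normal culture and 28.6 and 37.8 TPM in oncospheres. Its call in H2023 wild type was lost after centring. LAMC1 fell by 0.51 and 0.54 in A549 and by 0.49 in the H2023 knockout-labelled libraries. That H2023 call was lost in 7 of the 10 alternative settings run. LAMB1 fell in both H2023 genotypes. Wild type went from 174 and 160 to 95.6 and 98.7 TPM, and the knockout-labelled libraries from 161 and 148 to 92.9 and 84.6 TPM. LAMC3 fell in the H2023 knockout-labelled libraries from 9.99 and 7.98 to 2.51 and 1.18 TPM (log2 change -1.84). LAMB2 rose in A549 wild type from 42.5 and 74.2 to 117 and 142 TPM, with a log2 change of 1.18.

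Of the remaining collagens, COL5A1 fell in 3 of the 4 comparisons, by 1.72 and 2.75 in A549 and by 2.11 in H2023 wild type, from 7.76 and 16.6 to 1.70 and 2.09 TPM. COL12A1 fell in wild type of both lines, from 9.01 and 11.95 to 2.00 and 4.65 TPM in A549 and from 91.2 and 84.8 to 37.6 and 21.3 TPM in H2023. COL17A1, the hemidesmosome collagen of epithelial cells, rose in A549 wild type from 0.39 and 0.13 to 4.34 and 1.89 TPM and in the knockout-labelled libraries from 0.27 and 0.69 to 2.81 and 3.17 TPM. COL13A1 rose in both A549 genotypes (0.87 and 1.41), from 1.09 and 0.36 to 4.28 and 2.79 TPM in those labelled knockout, and fell in the H2023 knockout-labelled libraries from 2.25 and 3.86 to 0.18 and 0.14 TPM. COL5A3 rose in A549 wild type by 1.44. COL9A3, a chain of the cartilage collagen IX, rose in H2023 wild type from 0.41 and 1.30 to 5.02 and 2.89 TPM (log2 change 1.43), the only rise there. COL26A1, a collagen first described in testis and ovary, fell in both H2023 genotypes by 0.86 and 0.77 and did not keep that call after centring. COL6A1 rose in the H2023 knockout-labelled libraries by 1.07, from 16.6 and 18.9 to 37.5 and 39.0 TPM.

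**Figure D5:**
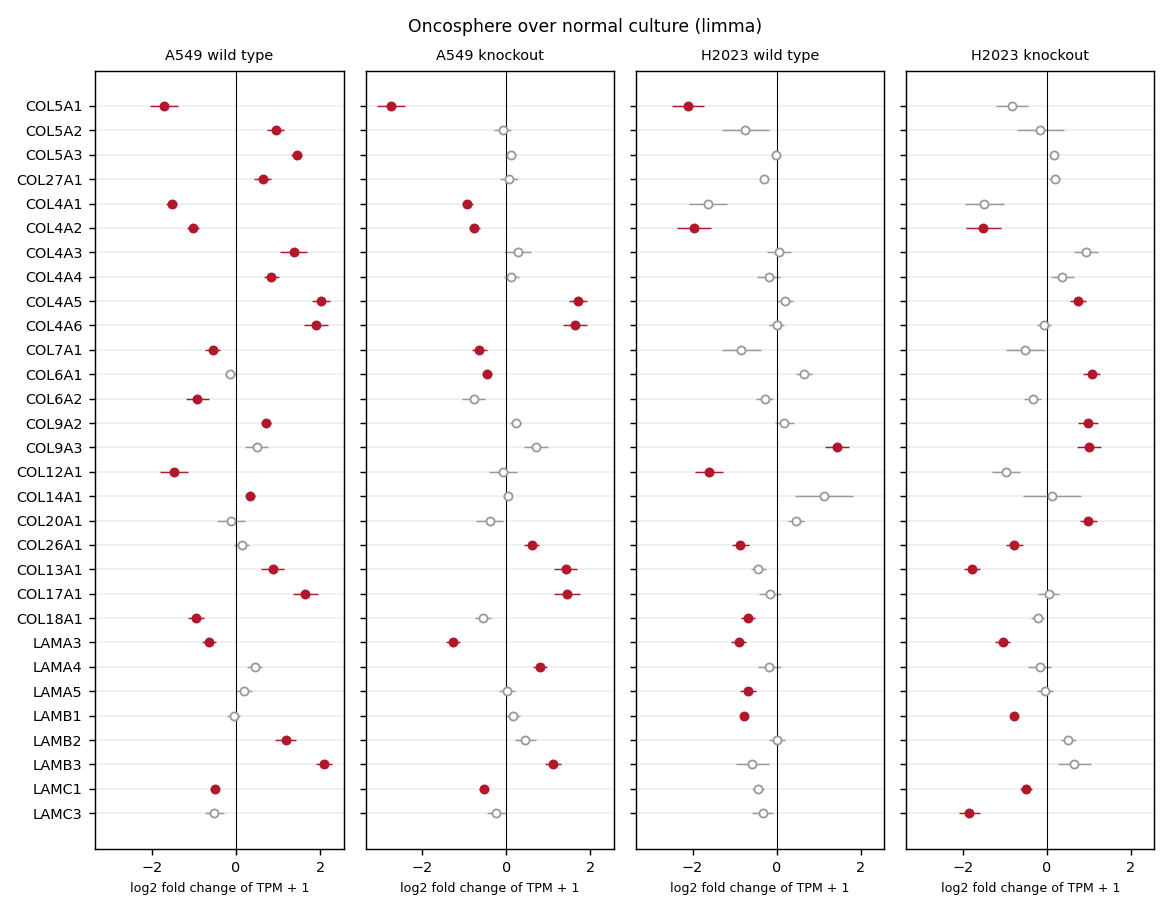
Log2 fold change of TPM + 1 in oncosphere over normal culture from limma, with its standard error as a bar, for 30 members in 4 panels, 1 per line and genotype (knockout as labelled). Filled red points passed limma at an adjusted p of 0.05 and open circles did not. COL4A2 and LAMA3 lie left of 0 and filled in every panel, and COL4A5, COL4A6 and LAMB3 lie right of 0 and filled in both A549 panels.

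The wild-type lines were compared within each culture, with limma over its 8 libraries. A comparison of 2 lines has no replicate lines. In normal culture 21 members were higher and 4 lower in H2023 than in A549 (27.0% and 15.4% of all genes), and in oncospheres 13 were higher and 13 lower (20.4% and 22.1%). The median log2 difference over genes with a mean of at least 1 TPM was 0.16 in normal culture, and centring on it left 18 higher and 5 lower (19.6% and 21.8% of all genes). LAMA4, an alpha chain of endothelial and mesenchymal basement membranes, was at 0.21 and 0.20 TPM in A549 and at 21.1 and 12.4 TPM in H2023 in normal culture, and at 0.70 and 0.57 against 17.8 and 11.5 TPM in oncospheres. LAMC3 was at 0.49 and 0.48 against 20.3 and 19.2 TPM, and at 0.03 and 0.04 against 17.0 and 14.3 TPM. The log2 differences were 3.84 and 3.23 for LAMA4 and 3.80 and 4.0 for LAMC3, the largest pair among members in normal culture. COL4A4 (log2 differences 3.03 and 2.0), COL12A1 (2.97 and 2.83), COL6A2 (2.61 and 3.25), COL6A1 (1.78 and 2.58) and LAMA3 (2.59 and 2.34) were also higher in H2023 in both cultures. COL7A1 was lower, with 8.34 and 19.4 TPM in H2023 against 73.7 and 55.5 TPM in A549 in normal culture and 4.26 and 10.2 against 47.0 and 39.3 TPM in oncospheres. COL4A2 was lower in H2023 in both cultures (log2 differences -1.12 and -2.04). LAMB3 was higher in H2023 in normal culture (1.16) and lower in oncospheres (-1.52). Leaving out 1 library ended the call of LAMB3 in either culture (limma adjusted p = 0.0608 and 0.0615) and of COL4A2 in normal culture (0.0553 and 0.111), as for 8 of 25 and 10 of 26 called members in all. In normal culture, COL5A2, COL11A2, COL12A1, COL6A1, COL6A2 and LAMA3 means of the A549 knockout-labelled libraries stood nearer to H2023 wild type than A549 wild-type means did. The COL6A1 and COL6A2 means went past H2023 wild type. COL6A1 was at 4.98 TPM in A549 wild type, 33.9 TPM in knockout-labelled libraries and 19.7 TPM in H2023 wild type. COL6A2 was at 2.56, 27.7 and 20.75 TPM in the same order. The knockout-labelled means of COL7A1, COL18A1, COL4A1, COL4A2, COL5A1 and LAMB3 stood further from H2023 wild type than those of A549 wild type. This is a description with no test.

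Chains that share a trimer or a start region did not all keep the same ratio. Over the 16 libraries, log2(TPM + 1) of COL4A1 and COL4A2 correlated with r = 0.93, COL4A3 and COL4A4 with r = 0.92, COL4A5 and COL4A6 with r = 0.81, and COL6A1 and COL6A2 with r = 0.90. These values describe libraries that share lines and cultures, and carry no p-value. Reads from the stretch that COL4A1 and COL4A2 share cannot be told apart unless counting used the strand, which is not given in the sources used here, and 21 of 41 members overlap an annotated gene on the other strand. The ratio of COL4A1 to COL4A2 ran from 0.266 to 0.79, whereas that of COL4A5 to COL4A6 ran from 2.64 to 60.2. The lowest was in A549. The highest was in the second knockout-labelled H2023 oncosphere library, where COL4A6 was near the floor at 0.13 TPM. COL5A1 and COL5A2 correlated with r = 0.23. LAMA3 and LAMB3 correlated with r = -0.11, and the ratio of LAMA3 to LAMB3 ran from 0.0633 in A549 wild-type oncospheres to 7.93 in the A549 knockout-labelled libraries in normal culture.

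Some genes that process or bind collagens and laminins were also called in A549, in both directions. Over all genes, limma called 4.53% higher and 6.28% lower in normal culture, and 6.04% and 7.2% in oncospheres. Of 22 genes for folding, modification and secretion, 4 rose and 1 fell in the knockout-labelled libraries in normal culture, and 5 rose and 1 fell in oncospheres. P4HA3, a subunit of prolyl hydroxylase, rose from 4.15 and 10.7 to 51.0 and 68.7 TPM in normal culture (log2 fold change 2.96), and PLOD2, a lysyl hydroxylase, from 132 and 101 to 359 and 411 TPM (1.73). SERPINH1, the collagen chaperone HSP47, fell there from 119 and 101 to 77.2 and 73.0 TPM (-0.54). In oncospheres it was at 94.6 and 90.9 against 130 and 114 TPM (log2 fold change 0.38, limma adjusted p = 0.0788). SPARC, a collagen-binding matrix protein, rose in oncospheres from 0.07 and 0.36 to 24.1 and 18.0 TPM (4.18). Of 14 genes for processing and crosslinking, 4 rose and 1 fell in normal culture, and 4 rose and 2 fell in oncospheres. LOXL2, which crosslinks collagen IV, was at 54.1 and 45.9 against 260 and 235 TPM in normal culture (2.29) and at 28.9 and 45.2 against 113 and 128 TPM in oncospheres (1.71). PCOLCE2, an enhancer of procollagen cleavage, rose by 1.39 and 2.18. Of 12 basement membrane partners, 3 rose and 1 fell in normal culture and 3 rose and 2 fell in oncospheres. NID2, a nidogen that links laminin to collagen IV, rose in normal culture by 1.28, and FN1, fibronectin, rose in oncospheres from 485 and 391 to 947 and 700 TPM. Of 16 receptors, 1 rose in normal culture, and 3 rose and 2 fell in oncospheres, among them MRC2, an endocytic collagen receptor (1.66 and 1.48), and ITGA1, a subunit of a collagen-binding integrin (-2.0 in oncospheres). The list medians in normal culture were 0.11, 0.10, 0.26 and 0.04 in the order given, against -0.03 over all genes, and in oncospheres 0.07, -0.05, -0.15 and 0.05 against 0.03.

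In H2023 none of these genes passed limma in the knockout-labelled libraries, where 0.0% of all genes passed. Over all genes, the authors' deposited table called 3.84% higher and 6.97% lower in normal culture, and 2.22% and 2.85% in oncospheres. The authors' deposited table called, of the 22, 14, 12 and 16 genes, 1, 1, 0 and 2 higher and 3, 1, 6 and 1 lower in normal culture, and 0, 1, 0 and 1 higher and 0, 1, 2 and 1 lower in oncospheres. With oncosphere culture, 13 of the 22 folding genes rose and 2 fell in A549 wild type (19.0% and 21.6% of all genes). In the A549 knockout-labelled libraries 10 rose and 1 fell (10.9% and 9.87%). In H2023 2 rose and 2 fell in wild type (3.96% and 17.4%), and 4 rose and 2 fell in the knockout-labelled libraries (7.68% and 19.2%). P4HB, the other prolyl hydroxylase subunit, was at 602 and 644 TPM in A549 wild type in normal culture and at 1218 and 1273 TPM in oncospheres (log2 change 1.00). LOXL2 fell in H2023 from 38.0 and 44.0 to 9.54 and 11.6 TPM in wild type (-1.86) and from 59.2 and 50.2 to 9.22 and 7.45 TPM in the knockout-labelled libraries (-2.58).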

How the data were processed

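The authors deposited 4 tables, 1 per line and culture, with 4 libraries each. The 18361 rows of a table gave 18227 genes after 134 repeated rows were dropped. The TPM values of each library were made by the authors, and their unit, which no label or header names, was read from library sums of 991838 to 998125. The processing notes of the submitters name HISAT2, StringTie and GRCh38. The tables also hold, per the file headers, a mean normalized count over 4 libraries (a signal), the authors' log2 fold change, its standard error and a test statistic (scores of the authors), and the authors' p-value with its adjusted form. Directions come from the fold change, since the sign of the statistic was opposite to it in every gene. Genes without an adjusted p-value in a table (707 to 2827) were counted in no deposited call.

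Here, limma 3.58.1 in R 4.3.3 was run on log2(TPM + 1) with its trend option, two-sided, with Benjamini-Hochberg adjustment over 18227 genes and a threshold of 0.05. Comparisons of genotype used their 4 libraries, those of culture the 8 libraries of the line, and those of lines the 8 libraries of the culture. No filter on low values was used. Differences of effects were tested by a normal test of the difference between the authors' log2 fold changes over its standard error, the square root of the sum of both squared errors. The limma script was tested on simulated data. The depth per library is unknown, which leaves the 2 replicates as the measure of precision. Members and gene lists were chosen with earlier results of these data known. Named with values per library were the 10 members of highest mean, up to 12 called members per direction in comparisons of genotype, the 6 largest called changes in the others, and the chains of collagen IV and of both laminins. Other genes of the pathway were named from fixed lists. The values of 1 member, which is included in all counts and sums, are not reported here. Pseudocounts, filters, centring, mitochondrial genes, replicate blocks, left-out libraries and the source of the spread were varied. Promoter windows are from RefSeq for GRCh38.p14, and gene positions from GENCODE 29.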

Additional observations from a re-analysis of the deposited data

Results flagged for a closer look

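The genes named here are ones for which the effect of the knockout label itself differed between cultures or lines, tested on the authors' deposited log2 fold changes and standard errors with adjustment over all genes. Values are differences of log2 fold changes. Between lines, COL5A3, COL6A3, COL9A2 and LAMC3 stayed below 1 TPM in at least 1 of the lines in the culture where they are named. COL4A6 stayed at 0.93 TPM or less in the H2023 oncosphere libraries.

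Between cultures (oncosphere minus normal), A549 gave -3.49 for COL5A3, -1.15 for LAMB3, -1.14 for COL5A2, -1.0 for COL27A1 and -0.76 for LAMB2, and H2023 gave -1.74 for LAMC3.

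Between lines (H2023 minus A549) in normal culture, the differences were below 0 for the fibrillar chains COL5A2 (-5.64), COL5A1 (-4.22) and COL1A1 (-1.66). They were below 0 for the collagen VI chains COL6A3 (-3.88), COL6A1 (-3.0) and COL6A2 (-2.91), and for the collagen IV chains COL4A6 (-2.96) and COL4A5 (-2.2). The same held for COL7A1 (-2.45), COL12A1 (-1.18) and COL18A1 (-1.11), and for the laminin chains LAMA3 (-1.91), LAMA5 (-1.1) and LAMB2 (-1.07). They were above 0 for COL13A1 (3.27) and LAMB3 (1.19).

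Between lines in oncospheres, the differences were below 0 for LAMC3 (-4.34), COL5A1 (-4.17), COL5A2 (-3.79), COL6A2 (-3.65), COL6A1 (-2.48), COL12A1 (-2.26), COL4A6 (-2.17), COL7A1 (-2.09), LAMA3 (-1.39), COL4A5 (-1.15) and COL18A1 (-1.04). They were above 0 for COL5A3 (4.69), LAMB3 (3.9), COL9A2 (2.69), COL4A3 (1.79), COL4A4 (1.5) and COL27A1 (1.16). COL4A3 and COL4A4 were lower in the knockout-labelled libraries of both lines in oncospheres, and the differences above 0 are between the sizes of these falls.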

How the results depend on the processing

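Of 1636 values of called members under alternatives, 1276 kept direction and call, 358 missed the threshold and 2 reversed. Both reversals were COL4A4 in the difference between lines in oncospheres, at -0.15 by limma interaction with and without a replicate block. The comparison of 4 libraries kept 1 residual degree of freedom without 1 library and then called 0 members in A549 in either culture, against 10 to 14 and 12 to 16 with the spread of the 7 other libraries of the line. In H2023 normal culture 7 members passed among genes with a mean of at least 1 TPM, 2 with the spread of 8 libraries, 11 in the authors' deposited table, and 0 to 1 without 1 library with the 7 others (COL5A2 without the first wild-type library). In H2023 oncospheres 1 passed with the spread of 8 libraries, 14 in the authors' deposited table, and 0 to 1 without 1 library (LAMC3 without the first knockout-labelled one). Without 1 library, oncosphere culture changed 8 to 12 members in the A549 knockout-labelled libraries, 3 to 5 in H2023 wild type and 4 to 6 in the H2023 knockout-labelled libraries. H2023 wild type had 1 with the spread of the 4 libraries compared. By limma interaction, without and with a replicate block, 1 and 3 effects differed between cultures in A549, 0 and 0 in H2023 (5 and 6 at an unadjusted p under 0.05), and 9 and 10 between lines in oncospheres. COL5A2 between cultures in A549 missed without the block (limma adjusted p = 0.0803) and passed with it (limma adjusted p = 0.0383). Over all genes, calls by genotype ran from 0 to 3639 and 0 to 3628 in A549 normal culture and oncospheres (1969 and 2413 in the comparison as reported) and from 0 to 1665 and 0 to 816 in H2023 (0 in both). Calls by culture ran from 4924 to 7592 and 2010 to 3940 in A549 (7392 and 3784) and from 1105 to 4270 and 2090 to 5401 in H2023 (3901 and 4895). The labels give replicates only a number, and deviations of same-numbered libraries correlated between -0.025 and 0.461 over 14823 genes. With the replicate block, 15 and 16 members were called by genotype in A549 normal culture and oncospheres, 0 in H2023, 24, 16, 10 and 14 by culture, and 25 and 28 by line. Leaving out libraries was not run for the differences of deposited fold changes. The counts of members in this section show how calls changed with the setting. The share of all genes is not given for each setting, so these counts do not show whether members exceed it.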
